A study of Mus musculus with 38 samples.

Results

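Peroxisomes are small organelles bounded by a single membrane that shorten very long, branched and dicarboxylic fatty acids and break down the hydrogen peroxide this produces. Proteins called peroxins (Pex genes) build the membrane, recognise and import the enzymes from the cytosol, and divide the organelle. In brown fat the organelle number and its oxidation enzymes are known to follow thermogenic demand, and many of the enzymes are textbook targets of the nuclear receptor PPAR alpha. The genes described here are 29 peroxins, transporters and oxidation enzymes, chosen by name: a gene belongs to the set if the array lists one of these 29 symbols. Of these, 28 were found among 29411 gene names, and all 28 were among the 21625 genes tested. Pex2 was not listed under that symbol; RefSeq gives Pxmp3, which the array does list, as an older name of Pex2, and its values are given separately.

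The tissue was brown adipose of C57BL/6J mice, which were weaned at 3 to 4 weeks of age and split into groups of 30 animals. LFC mice ate a diet with 10% of calories from fat, and HFC mice a diet with added sucrose and 60% of calories from fat. The HF5, HF20 and HF75 mice ate the HFC diet together with 5, 20 or 75 µg of the herbal formulation Kal-1. LFC and HFC have 10 arrays each, at days 6, 10 and 14 and weeks 0, 3, 6, 9, 12, 15 and 18, and each dose has 6 arrays at weeks 3 to 18. There was 1 array per group and time point, so the time points stand in as replicates, and the labels do not say whether an array carries RNA of a single animal or of a pool. In every fit but the slope over time, the time point was in the model. Those p-values therefore measure how a difference between arrays varied from time point to time point. They do not measure the spread between animals of the same age. The tissue is measured whole, so fewer cells of a type and less RNA per cell cannot be told apart.

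A level is the log2 of an array's processed signal minus the log2 of that array's 75th percentile, so 0 is the 75th percentile, and each gene is read by the probe with the highest mean. Levels of different genes come from different probes and are not set against each other. Of the 28 members, 21 were well above background on all 38 arrays. The exceptions were Hacl1 (14 arrays), Abcd2 (26), Acox2 (28), Pex10 (29), Pex26 (34), Pex5 (37) and Ehhadh (37).

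The probes matter for the thiolases and for the targeting receptor Pex5, because probes of the same gene gave different readings. Acaa1a and Acaa1b encode near-identical peroxisomal 3-ketoacyl-CoA thiolases, which carry out the last step of beta-oxidation. The first 30 of 60 bases of each probe, as the array files give them, are shown here so that the readings can be traced.
Acaa1a, probe used: ggttgcaaagccatttgtacctttgaggga
Acaa1a, further probe with the same sign on bright arrays: acatagacatctttgagatcaatgaggcct
Acaa1a, further probe with the opposite sign on bright arrays: ctgctggagagtgagaaagccagagactgc
Acaa1b, probe used: tctgcgtgggacactcagcagtggaggagt
Pex5, probe used: agggttcagtgttaccataagccttcttga
Pex5, second probe: gagaatcccttgcgtgaccaccctcagcct
Acox2, only probe: ctcaggagaaccctgcctataagaagtata
The longest run of bases shared between an Acaa1a probe and the Acaa1b probe was 6, and the longest shared by any of 766 pairs of probes of different members was 11. No probe was set against a transcript, so whether an Acaa1a probe also takes up Acaa1b RNA was not tested, and both readings are uncertain to that extent.

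RefSeq promoter windows of GRCm38.p6, from 250 bases before to 50 bases after a gene's start, were at hand for 23 members. PPAR alpha and its partner RXR bind repeats of the motif AGGTCA, so this motif was searched on both strands. It stood in 5340 of 32851 windows in all (16.3%) and in those of 3 members, Cat, Scp2 and Phyh. In Phyh it lay after the start. The repeat AGGTCANAGGTCA stood in 13 windows (0.0396%) and in no member window. The 250 bases before the start of Cat (catalase, which splits hydrogen peroxide) and of Scp2 (sterol carrier protein and thiolase) follow, 5′ to 3′ on the gene's strand, which is the minus strand for both, with the motif in capitals. They are shown because these are the only members with the motif before the start.
Cat, chr2:103485154-103485403: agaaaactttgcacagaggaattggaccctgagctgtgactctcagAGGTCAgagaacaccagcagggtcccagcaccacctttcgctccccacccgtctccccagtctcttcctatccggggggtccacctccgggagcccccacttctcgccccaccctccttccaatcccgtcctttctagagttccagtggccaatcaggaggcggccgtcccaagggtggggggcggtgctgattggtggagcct
Scp2, chr4:108118548-108118797: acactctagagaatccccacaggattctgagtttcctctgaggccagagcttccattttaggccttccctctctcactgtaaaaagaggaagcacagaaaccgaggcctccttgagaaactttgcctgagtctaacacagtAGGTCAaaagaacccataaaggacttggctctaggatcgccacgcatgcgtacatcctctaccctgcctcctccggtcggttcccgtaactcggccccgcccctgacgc
The motif begins 204 bases before the start of Cat and 109 bases before that of Scp2.

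The arrays differed in overall brightness. The 75th percentile of processed signal lay between 625.4 and 1209 intensity units on 11 bright arrays and between 35.1 and 430 on 27 dim arrays, with a boundary of 600 that was set after the arrays had been seen. LFC had 4 bright arrays of 10, HFC 2 of 10, HF5 0 of 6, HF20 4 of 6 and HF75 1 of 6. The HF75 array of Week 3 also went against its tissue label. Its level of Ucp1, the uncoupling protein that defines brown fat, was -3.08, where the next lowest array had 3.38. Cidea was at -1.78 there against 5.58 or more elsewhere, Cox8b at -2.01 against 4.04 or more, and Elovl3 and Otop1 were not well above background. Of the other listed brown markers, Ppargc1a and Cox7a1 were also lowest there. Prdm16 was not low, at 1.67 beside a median of 1.67 over all arrays. Dio2 was at -4.197, while its lowest array was LFC Week 18 at -4.202. The summed level of 9 brown adipocyte markers was 2.27 on it and 7.03 to 10.4 on the other arrays, while that of 6 white adipocyte markers was 4.26 (1.12 to 4.38 over all arrays) and that of 6 macrophage markers 4.37, the highest of all arrays. The main counts and medians that use this array are therefore given with and without it.

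The peroxisome genes were higher on the bright arrays. With group and time point in the model, 27 of 28 members were higher on bright than on dim arrays at an adjusted p under 0.05 (limma), as were 23.7% of all genes tested. Hacl1 is among the 27, but 11 of 11 bright and 3 of 27 dim arrays measured it well above background, so it passed the filter through the arrays where it was high and its size is uncertain. The median difference was 2.02 log2, or 4.07-fold, where the median of all genes was -0.29. Without the HF75 array of Week 3 the median was 2.24 and the count again 27.

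**Figure D1:**
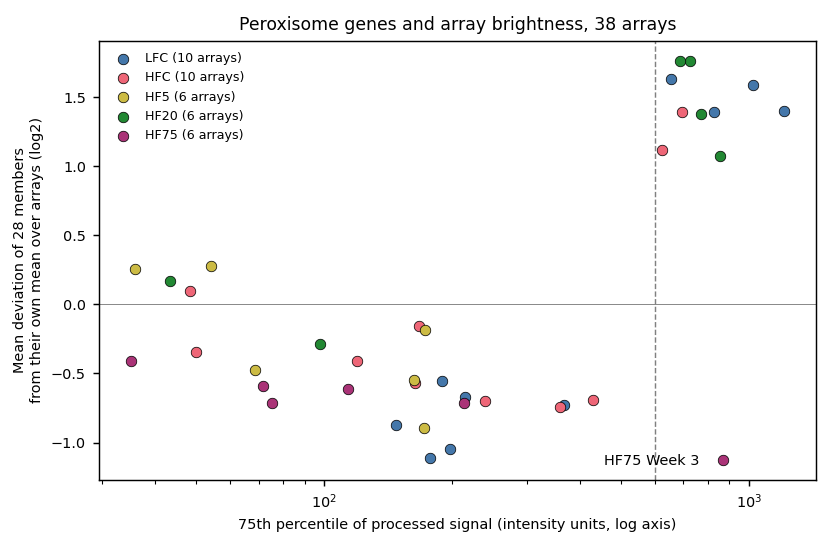
Each point is 1 of the 38 arrays, coloured by group. The x axis is the 75th percentile of processed signal (intensity units, log axis) and the y axis the mean deviation of the 28 members from their own means over arrays (log2); the dashed line marks 600. The 10 bright arrays other than HF75 Week 3 lie at 1.08 or above, while HF75 Week 3 lies at -1.12, the lowest of all.

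The membrane assembly factors Pex3, Pex16 and Pex19, which insert membrane proteins and can form new peroxisomes, differed by 2.18, 2.52 and 1.99. Pex16 had the smallest p of all members (2.52, SE 0.28, adjusted p 1.07e-07). On dim arrays Pex16 ran from -0.47 to 2.05 with a median of 0.53, and on bright arrays from -0.03 to 3.70 with a median of 2.92. The lowest bright value was that of HF75 Week 3. Without that array the bright range began at 2.04, just under the highest dim value.

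Among genes of import, the receptor Pex7 (2.27) and the docking proteins Pex13 (2.24) and Pex14 (2.06) had larger differences than the receptor Pex5 (1.31), Pex6 (1.61) and Pex26 (1.01). Pex7 carries enzymes with the second targeting signal, Pex5 those with the first, and Pex6 with its anchor Pex26 pulls used receptors off the membrane. Pex10, a ring ubiquitin ligase that marks receptors for reuse, differed by 1.95. Pex11a, which elongates the membrane before division, differed by 2.64.

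Of the beta-oxidation enzymes Ehhadh, the bifunctional enzyme of straight chains, had the largest difference of all members at 3.60 (SE 0.51, adjusted p 2.06e-06), and 3.92 without HF75 Week 3. It ran from -3.43 to 0.33 on dim arrays with a median of -1.01. On bright arrays other than HF75 Week 3 it began at 0.33 and reached 3.34, so the ranges overlapped by less than 0.01. Hsd17b4, the bifunctional enzyme of branched chains, differed by 2.42 (SE 0.28, adjusted p 1.42e-07), and by 2.64 without that array. Acox3, an oxidase of branched acyl-CoA, differed by 1.49, Scp2 by 1.79, Acaa1a by 1.38 and Acaa1b by 1.58.

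Acox2, the oxidase that shortens bile acid side chains, was the exception. Its difference was -1.25 (SE 0.83, adjusted p 0.199), and without HF75 Week 3 it was -0.81 (adjusted p 0.364). It ran from -5.33 to 1.37 on dim arrays and from -8.03 to -2.39 on bright ones. The ranges overlapped from -5.33 to -2.39.

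The fatty acyl-CoA transporters of the membrane, Abcd2 and Abcd3, differed by 2.38 and 2.70, and Abcd4, which lies in lysosomes, by 1.30. Cat differed by 1.80. The auxiliary reductases Decr2 and Pecr, which deal with double bonds, differed by 2.46 (SE 0.29, adjusted p 2.19e-07) and 2.61. The racemase Amacr differed by 2.23, the carnitine octanoyltransferase Crot by 1.71, and the alpha-oxidation enzymes Phyh and Hacl1 by 2.22 and 1.89, the latter against dim arrays that were mostly not well above background. Every role had a member that passed, and Acox2 was the single member that did not.

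**Figure D2:**
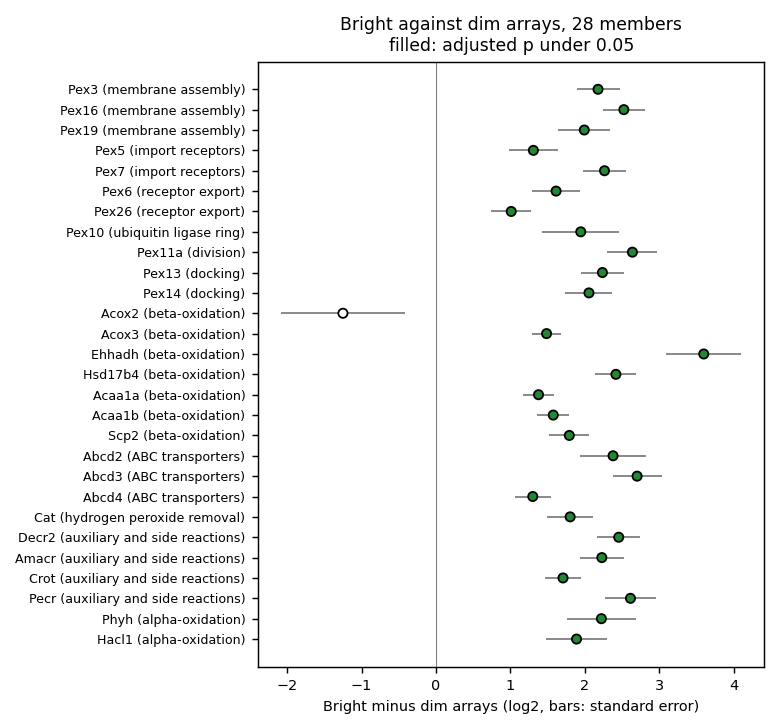
Difference of the 11 bright from the 27 dim arrays for each of the 28 members (log2, points), with the standard error (bars); filled points passed an adjusted p of 0.05. All members but Acox2 (-1.25) lie between 1.01 and 3.60.

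In single arrays, 14 of 28 members had every bright array other than HF75 Week 3 above every dim array, as did 6.76% of all genes. Pex5 and Pex19 are among the 14 without a value on the bright HFC array of Day 10, where their spots were left out. Pex3 had the widest gap, 0.91 log2, followed by Hsd17b4 at 0.87 and Acox3 at 0.81. On HF75 Week 3 Pex3 was at -0.93, within the dim range of -2.43 to -0.05.

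Of the 12 further probes of members, 10 had the sign of the probe used, and 10 passed the threshold. Of the further Acaa1a probes printed above, that with the opposite sign differed by -1.26 (adjusted p 0.0568) and the other by 1.93. The second Pex5 probe, well above background on 22 arrays, differed by -0.04. Under the normexp background correction 23 of 28 members were above 0, and Abcd2, Hacl1, Pex10 and Pex26 moved to -0.14, -1.004, -0.04 and -0.40. These 4 were well above background on 14 to 34 arrays. The median of all genes was then -0.73 and that of the members 2.11.

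Some markers of other cells moved with brightness too, and their part in the result was not tested. Of all 21625 genes 12788 passed in this comparison, 5129 of them higher and the rest lower on bright arrays. All 5 erythroid markers fell on bright arrays, with summed levels of 6.84 to 7.78 there and 8.21 to 11.9 on dim arrays. Of 6 white adipocyte markers 4 rose and 1 fell, with summed levels of 2.30 to 4.38 on bright and 1.12 to 2.37 on dim arrays. Of 9 brown adipocyte markers 3 rose and 1 fell, of 6 macrophage markers 3 rose, of 7 lymphocyte markers 2 fell, and of 11 skeletal muscle and 2 hepatocyte markers 0 passed. The lymphocyte count does not set that list apart from all genes. Summed muscle levels varied widely in both classes, from 2.81 to 8.97 on bright and from 2.4 to 10.3 on dim arrays. Summed hepatocyte levels ran from -7.47 to 4.80 on bright and from -5.67 to 2.76 on dim arrays. Among 44 other peroxisome genes tested 33 rose and 3 fell, with a median of 1.79, and of 17 mitochondrial beta-oxidation genes 13 rose and 1 fell, with a median of 1.99. Of 10 regulators 7 rose, and the coactivator Ppargc1b had the smallest p of them (4.05, SE 0.43, adjusted p 5.83e-08). Without the HF75 array of Week 3, 5 erythroid markers again fell, 3 white adipocyte markers rose and 2 fell, 4 brown adipocyte markers rose and 1 fell, 3 macrophage markers rose, 3 lymphocyte markers fell and 1 muscle marker rose. The other peroxisome genes then had 34 up and 3 down, the mitochondrial genes 13 up and 1 down, and the regulators 7 up. The summed brown level on the other 10 bright arrays ran from 7.91 to 8.74, within the dim range.

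HFC against LFC asked what the high fat diet did to these genes over the whole course. No member passed (0 of 28, as 0 of all genes, 0%), and 0 members had an unadjusted p under 0.05 beside 6.82% of all genes. The median over members was -0.24, that of all genes 0.05, and 24 of 28 members were below 0. The smallest adjusted p of a member was 0.652.

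Abcd4, Pex7 and Acox3 had the smallest p. In LFC Abcd4 ran from -0.05 to 2.39 with a median of 0.70, and in HFC from -0.13 to 1.94 with a median of 0.47. Its difference was -0.60 (SE 0.27, adjusted p 0.652), and it was lower at 8 of 10 time points. The groups overlapped over nearly the whole range. Pex7 differed by -0.62 (SE 0.37, adjusted p 0.652) and was lower at 5 of 9 time points. Acox3 ran from -0.30 to 1.81 in LFC (median 0.43) and from -0.64 to 1.65 in HFC (median -0.06), and differed by -0.55 (SE 0.33, adjusted p 0.652), also lower at 8 of 10 time points.

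Ehhadh and Pex11a are known PPAR alpha targets. Ehhadh ran from -2.50 to 3.23 in LFC with a median of -0.70 and from -2.24 to 2.50 in HFC with a median of -0.89. Pex11a ran from 0.98 to 5.78 with a median of 2.51 in LFC and from 1.45 to 5.29 with a median of 2.69 in HFC. Each was higher at some time points and lower at others, 6 of 10 higher for Ehhadh and 5 of 10 for Pex11a. Cat ran from 1.19 to 4.58 in LFC (median 1.70) and from 1.78 to 3.61 in HFC (median 2.34), with a difference of 0.06 (SE 0.36, adjusted p 0.955).

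Neither thiolase passed. Acaa1a ran from 4.15 to 6.45 in LFC with a median of 4.51, with 2 saturated spots, and from 4.30 to 6.30 in HFC with a median of 4.65. Acaa1b ran from 1.43 to 3.93 (median 2.10) in LFC and from 1.14 to 3.13 (median 2.14) in HFC. Their differences were -0.14 (SE 0.30) and -0.40 (SE 0.31), and the Acaa1a probe that had the opposite sign on bright arrays was at 0.72 (SE 0.38).

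**Figure D3:**
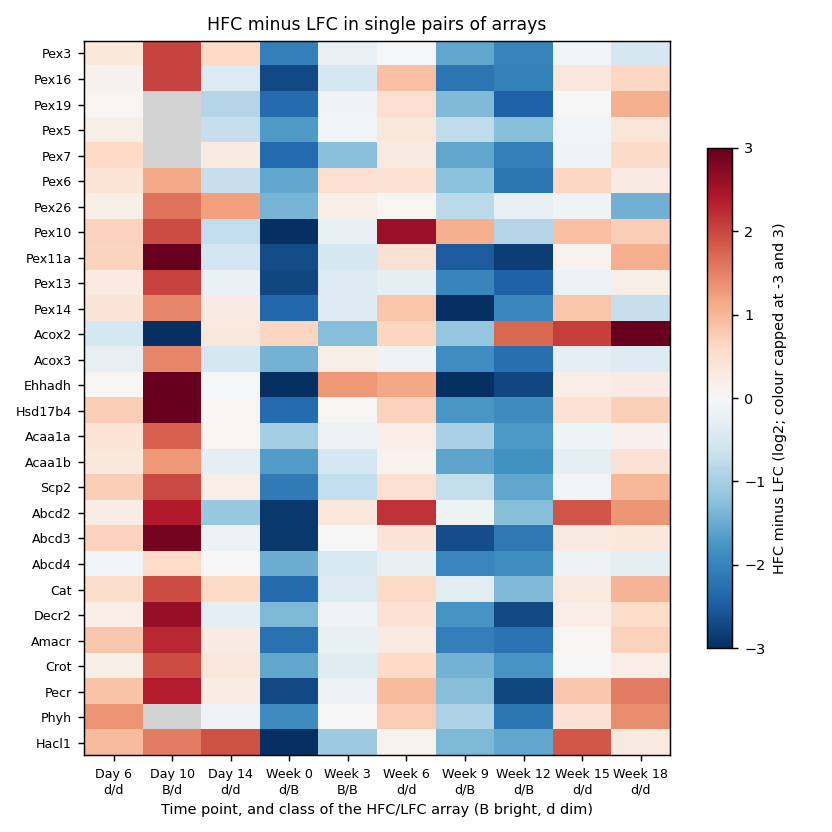
HFC minus LFC for each member (rows) at each time point (columns), as the difference of 2 arrays (log2, colour capped at -3 and 3; grey where a spot was left out). Letters under the time points give the class of the HFC and of the LFC array (B bright, d dim); columns with unlike letters are nearly all red or all blue.

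Time point by time point, the sign went with the classes of the 2 arrays. At Day 10, with HFC bright and LFC dim, 23 of 24 members were higher in HFC, with a median of 1.97. At Weeks 0, 9 and 12, with HFC dim and LFC bright, 27 of 28 members were lower each time, with medians of -2.27, -1.48 and -1.99. At the 6 time points where both arrays shared a class the medians lay between -0.21 and 0.50. A fit on those 6 gave a median of 0.20, with 24 of 28 members above 0 and 0 passing, and with the class as a covariate it was 0.16.

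Acox2 again stood apart from the other members, since at Weeks 12, 15 and 18 it was 1.72, 2.08 and 3.50 higher in HFC. At Day 10 its difference was -3.43, while 23 other members were higher in HFC. At every time point but Week 9 both arrays were scanned on the same day, and within these 9 scan days the medians over members ran from -2.27 to 1.97.

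In weeks 3 to 18 the median over members was -0.45 and that of all genes 0.06. No member passed, beside 0.00925% of all genes, and 2 members had an unadjusted p under 0.05 in the lower direction, beside 4.07% of all genes. These were Acox3 (-0.79, SE 0.38, adjusted p 0.357) and Abcd4 (-0.82, SE 0.39, adjusted p 0.358), followed by Pex13 (-0.86, SE 0.55, adjusted p 0.432). With the class as a covariate the median was 0.27, so the direction turned.

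The doses of Kal-1 were each compared with HFC, whose arrays the comparisons share. HF5 had no bright array. No member passed (0% of all genes did), and none had an unadjusted p under 0.05 beside 5.52% of all genes. The median was -0.12, with 9 of 28 members above 0. Hacl1 (-0.93, SE 0.56, adjusted p 0.814), Pex10 (-0.82, SE 0.68, adjusted p 0.851) and Acaa1b (0.45, SE 0.41, adjusted p 0.865) had the smallest p.

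Hacl1, the lyase of alpha-oxidation, was not well above background on any HF5 array and on 2 of 6 HFC arrays of these weeks, so no fold is given. Pex10 ran from -4.35 to -0.98 in HF5 with a median of -3.06. Acaa1b ran from 1.62 to 3.38 in HF5 with a median of 2.78, which spans the HFC median. At Week 3, the only week with a bright HFC and a dim HF5 array, 27 of 28 members were lower in HF5, with a median of -2.36. At the other 5 weeks the medians lay between 0.04 and 0.98, and a fit on these gave 0.41, so the direction turned without Week 3.

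HF20, with 4 bright arrays of 6, had a median difference above 0, unlike the other doses. No member passed (0% of all genes did, smallest adjusted p 0.122), but 15 of 28 had an unadjusted p under 0.05 in the higher direction, beside 13.4% of all genes. The median was 1.1, or 2.14-fold, where all genes had -0.19, and 27 of 28 members were above 0. Acox3 (1.14, SE 0.38), Pex19 (1.52, SE 0.53) and Abcd2 (1.90, SE 0.68) had the smallest p, each with an adjusted p of 0.122.

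Acox3 ran from 0.07 to 1.84 in HF20 with a median of 1.38, against the HFC range of -0.64 to 1.65. It was higher at 5 of 6 weeks. Pex19 ran from 0.47 to 3.12 in HF20 with a median of 2.60, and in HFC from -0.76 to 2.15 with a median of 0.70. Abcd2 ran from -2.73 to 0.34 in HF20 (median -0.90) and from -5.40 to -1.46 in HFC (median -3.53). The HFC ranges and medians here are those of all 10 HFC arrays, including time points before Week 3. The HFC extremes of Abcd2 stood at Week 0 and Day 10. Each of these members overlapped between HF20 and HFC, and the lowest HF20 array of all 3 was the dim one of Week 18.

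By role, all 3 membrane assembly genes had an unadjusted p under 0.05, with differences of 1.29 to 1.52, as did 5 of 7 beta-oxidation genes, 2 of 3 transporters and 2 of 4 auxiliary enzymes. Pex11a differed by 1.57 and ran from 2.79 to 5.45 in HF20 with a median of 4.58. Ehhadh differed by 1.84 (SE 0.95, adjusted p 0.172) and ran from -0.60 to 3.34, with a median of 0.72. Cat differed by 0.90 (SE 0.50, adjusted p 0.196) and ran from 2.41 to 4.27, with a median of 3.51. Acaa1a ran from 5.33 to 6.23 (median 5.85) and Acaa1b from 2.56 to 3.84 (median 3.14), with differences of 0.95 and 1.02. The Acaa1a probe that had the opposite sign on bright arrays was at -0.82 (SE 0.71), and the other further probe at 1.30 (SE 0.49). Acox2, at -1.95 (SE 0.97, adjusted p 0.161), was the only member below 0 in HF20 against HFC, and it was well above background on 3 of 6 HF20 arrays.

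The weeks again split by class. At Weeks 6, 12 and 15, which set a bright HF20 against a dim HFC array, the medians were 1.91, 2.48 and 2.62. At Weeks 3, 9 and 18, where both had the same class, the medians were -0.30, 0.04 and 0.27. A fit on these 3 weeks gave a median of 0.0045, with 14 of 28 members above 0 and 0 with an unadjusted p under 0.05, and the class as a covariate gave 0.17. Under normexp 24 of 28 members were above 0, with Hacl1 (-0.62), Pex10 (-0.01) and Pex26 (-0.39) below.

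Other lists moved with the HF20 difference, and their part was not tested. Of 44 other peroxisome genes 24 had an unadjusted p under 0.05 in the higher direction, with a median of 1.13, and 5 of 10 regulators, with 1 in the lower direction and a median of 1.21. Of 5 erythroid markers 3 were lower at that threshold (median -1.57, summed levels of 6.99 to 11.6 in HF20 and 7.34 to 11.5 in HFC), and 2 of 6 white adipocyte markers were higher (summed 1.63 to 4.23 in HF20 and 1.15 to 3.06 in HFC).

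HF75 had 1 bright array, that of Week 3. No member passed (0% of all genes did), and 1 member had an unadjusted p under 0.05 in the lower direction, beside 4.31% of all genes. The median was -0.52, and 27 of 28 members were below 0. Pex10 had the smallest p (-1.97, SE 0.68, adjusted p 0.530), before Pex26 (-0.60, SE 0.34, adjusted p 0.561) and Decr2 (-1.06, SE 0.61, adjusted p 0.565).

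Pex10 ran from -6.06 to -2.75 in HF75 with a median of -3.67, against -3.59 to -0.62 in HFC with a median of -1.88, and was lower at 6 of 6 weeks. Only 2 of 6 HF75 arrays measured it well above background, and under normexp its difference was -0.49. Pex26 ran from -3.41 to -1.49 in HF75 (median -2.07) and from -3.37 to -0.37 in HFC (median -1.68). Decr2 ran from -1.21 to 0.07 in HF75 with a median of -0.17 and from -0.04 to 2.95 in HFC with a median of 0.24, also lower at 6 of 6 weeks. The HFC ranges are those of its 10 arrays, and both Pex10 and Decr2 overlapped between the groups.

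At Week 3, 28 of 28 members were lower than on the HFC array of the same week, which was also bright, with a median of -2.44, and at Weeks 6 to 18 the medians lay between -0.55 and 0.26. Without the HF75 array of Week 3 the median was -0.29, and Pex10, Pex26 and Decr2 were at -1.71, -0.49 and -0.95. The median of the brown adipocyte markers in HF75 against HFC was -1.60 with this array and -0.48 without it, with 0 of 9 passing either way. Their summed level was 2.27 on it and 7.71 to 8.83 on the other 5 HF75 arrays, which lies within the HFC range of 7.30 to 10.0.

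Whether the doses differed from each other was asked with an F test over HF5, HF20 and HF75. It called 9 of 28 members at an adjusted p under 0.05, beside 13.8% of all genes. These were Abcd2 (adjusted p 0.0338), Pecr (0.0370), Pex19 (0.0371), Pex10 (0.0381), Pex11a (0.0416), Hsd17b4 (0.0430), Pex7 (0.0485), Pex16 (0.0486) and Amacr (0.0497), and in all 9 HF20 was the highest and HF75 the lowest. The fitted levels of these 9 did not run in the order of the dose. Genes of other lists passed the same test, and their part was not tested: 18 of 44 other peroxisome genes, 7 of 17 mitochondrial beta-oxidation genes, 6 of 10 regulators, among them Ppara (adjusted p 0.0338), Ppargc1b (0.0342) and Ppargc1a (0.0395), and 1 of 6 white adipocyte markers, Lep (0.0338). Ppargc1a was also the 1 of 9 brown adipocyte markers that passed. Without the HF75 array of Week 3, 0 genes of any of these lists passed.

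Abcd2 was 2.13 higher in HF20 than in HF5 (SE 0.68) and 0.90 lower in HF75 than in HF5. It ran from -4.34 to -2.47 in HF5 (median -3.12) and from -5.07 to -2.77 in HF75 (median -4.09), where 2 of 6 arrays were well above background. Pecr was 1.91 higher in HF20 than in HF5 (SE 0.66) and 0.67 lower in HF75. Pex19 was 1.51 higher in HF20 (SE 0.53); it ran from -0.01 to 1.65 in HF5 and from -0.80 to 1.29 in HF75. The ranges of HF5 and HF75 overlapped in all 3.

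Of these 9 calls 0 remained without the HF75 array of Week 3, 0 without any of the HF20 arrays of Weeks 3, 6, 12 and 15, and 0 with the brightness class as a covariate. The median of HF20 minus HF5 was 1.30 in the first fit and -0.04 with the class, so the direction turned with the class. Without that HF75 array it was again 1.30. This value could not change, because HF20 and HF5 have an array at each of the 6 weeks. HF5 has 0 and HF20 4 bright arrays of 6. Dose and brightness are therefore partly confounded, since among the doses HF20 and HF75 have arrays of both classes and HF5 has dim arrays alone. The only bright HF75 array is that of Week 3, which went against its tissue label. Without it every bright array of a dose is an HF20 array.

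HF75 against HF20, a contrast added after the values had been seen, called 24 of 28 members lower in HF75, beside 13% of all genes. The median was -1.72, a 3.30-fold difference, with all genes at 0.27. Abcd2 (-3.03, SE 0.68, adjusted p 0.0144), Pex10 (-2.70, SE 0.68, adjusted p 0.0154) and Pecr (-2.58, SE 0.66, adjusted p 0.0161) had the smallest p, and each was lower at 6 of 6 weeks. Ehhadh was 3.16 lower (SE 0.95, adjusted p 0.0236): it ran from -3.24 to -1.095 in HF75, with a median of -1.72, and lay below every HF20 array. Cat was 1.49 lower (SE 0.50, adjusted p 0.0333) and ran from 1.19 to 2.84 in HF75 with a median of 2.02.

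Acaa1a fell by 1.02 and Acaa1b by 1.19. In HF75 they ran from 4.49 to 5.01 (median 4.79) and from 1.64 to 2.38 (median 1.89), below all HF20 values of the same probes. The Acaa1a probe that had the opposite sign on bright arrays differed by 0.40 (SE 0.71), and the other further probe by -1.70 (SE 0.49). Pex11a fell by 2.34 and ran from 1.62 to 2.56 in HF75, also below every HF20 array. For these genes and Ehhadh, the share of all genes that separated HF75 from HF20 in this way was not counted. All 3 membrane assembly genes, both import receptors, both export factors and all 4 auxiliary enzymes passed. Pex14, Abcd4, Hacl1 and Acox2 did not pass. Without the HF75 array of Week 3 the count was 5 (Abcd2, Pecr, Pex10, Pex19 and Pex7) and the median -1.55. Among those that no longer passed were Ehhadh (-2.88, adjusted p 0.0612), Cat (-1.27, 0.0867), Pex11a (-2.12, 0.05004), Acaa1a (-0.91, 0.0961) and Acaa1b (-1.10, 0.0822). Without Week 6, 12 or 15, each with a bright HF20 array, the count was 0, and at the 3 weeks where both arrays shared a class the median was -0.93 with 0 passing (-0.65 without HF75 Week 3). The counts of these further fits are given without the share of all genes passing, so they do not set members apart from other genes.

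Other lists moved with this contrast, and their part was not tested. Of 9 brown adipocyte markers 3 fell, namely Ppargc1a (-3.26, adjusted p 0.0169), Dio2 (-3.12, 0.0270) and Otop1 (-3.86, 0.0274), with 0 passing without the HF75 array of Week 3. Of 6 white adipocyte markers Lep (-3.65, adjusted p 0.0144) and Retn (-2.22, 0.0389) fell and Hoxc9 (2.65, 0.0397) rose; without that array Lep and Retn passed and Hoxc9 did not. Summed white levels ran from 1.63 to 4.23 in HF20 and from 1.12 to 2.07 in HF75 without Week 3, where it was 4.26. Of 10 regulators 7 fell, among them Ppara (-4.55, adjusted p 0.0144), the receptor of fatty acids, and 3 fell without that array. Of 17 mitochondrial beta-oxidation genes 14 fell and 1 rose, with Acads at -4.08 (adjusted p 0.0109), and 5 fell without it. Of 44 other peroxisome genes 24 fell and 1 rose, and 10 fell without it. Of the erythroid, macrophage, lymphocyte, muscle and hepatocyte markers 0 passed in either fit. Single arrays still differed widely in muscle and hepatocyte markers. Summed muscle levels ran from 3.055 to 8.97 in HF20 and from 2.81 to 10.3 in HF75, where Week 12 was highest. Summed hepatocyte levels ran from -6 to 4.80 in HF20, where Week 6 was highest, and from -6.60 to 0.62 in HF75.

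Pxmp3, the older name of Pex2, a ring ubiquitin ligase partner of Pex10, gave values like those of the members. It ran from -3.33 to -0.07 in LFC (median -1.76), from -2.26 to -0.01 in HFC (median -1.63) and from -2.50 to -0.92 in HF5 (median -2.05). In HF20 it ran from -1.45 to 0.83 with a median of -0.33, and in HF75 from -3.03 to -1.64 with a median of -2.13. It passed the F test among doses (HF20 minus HF5 1.52, SE 0.43, adjusted p 0.0338), and did not without the HF75 array of Week 3 (adjusted p 0.0635). All HF20 arrays were above all HF75 arrays, and the share of all genes separated in this way was not counted.

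The course over time was fitted as a slope per week over the 20 LFC and HFC arrays, with diet in the model. Time point was not a block in this fit, so LFC and HFC arrays of the same time point counted as independent. Acox2 was the only member to pass, rising by 0.17 log2 per week (SE 0.040, adjusted p 0.0425), beside 0.911% of all genes in that direction. The median slope of members was -0.029 per week. Pex19 (-0.062 per week, SE 0.032, adjusted p 0.279) and Pex6 (-0.044, SE 0.028, adjusted p 0.379) came next.

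In HFC Acox2 was at -4.18, -6.21 and -3.52 on days 6, 10 and 14 and at -5.05, -3.97, -3.96 and -3.70 at Weeks 0, 3, 6 and 9. It was then at -1.15, -1.54 and 1.37 at Weeks 12, 15 and 18. In LFC it ran from -5.70 at Week 0 to -2.14 at Week 18, with a median of -3.24. The late HFC arrays were thus the highest of that diet, and Week 18 was the highest of all 38 arrays. Acox2 was well above background on 9 of 10 LFC and 8 of 10 HFC arrays, so its lowest values are uncertain.

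In HF5 Acox2 ran from -4.10 to -2.19 with a median of -2.89, and in HF20 from -6.24 at Week 12 to -2.39 at Week 6. In HF75 it was at -8.03 at Week 3, -0.39 at Week 9 and -0.68 at Week 12. At Week 18 all 3 doses were below HFC, at -2.19, -5.33 and -3.68. Acox2 was well above background on 5 of 6 HF5, 3 of 6 HF20 and 3 of 6 HF75 arrays. Without the HFC array of Week 18 the slope was 0.13 (adjusted p 0.198), and 18 of 30 fits that left out an array or a time point no longer passed. Under normexp the slope was 0.107.

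The difference of slopes between the diets was 0.21 per week for Acox2 (SE 0.061, adjusted p 0.142), and no member passed (0% of all genes did). Under normexp the difference for Acox2 was 0.062 per week. Acox2 was the only member with an unadjusted p under 0.05 in the higher direction, beside 13.2% of all genes. Pex26 (-0.076, SE 0.041, adjusted p 0.438) and Pex3 (-0.066, SE 0.055, adjusted p 0.642) followed.

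**Figure D4:**
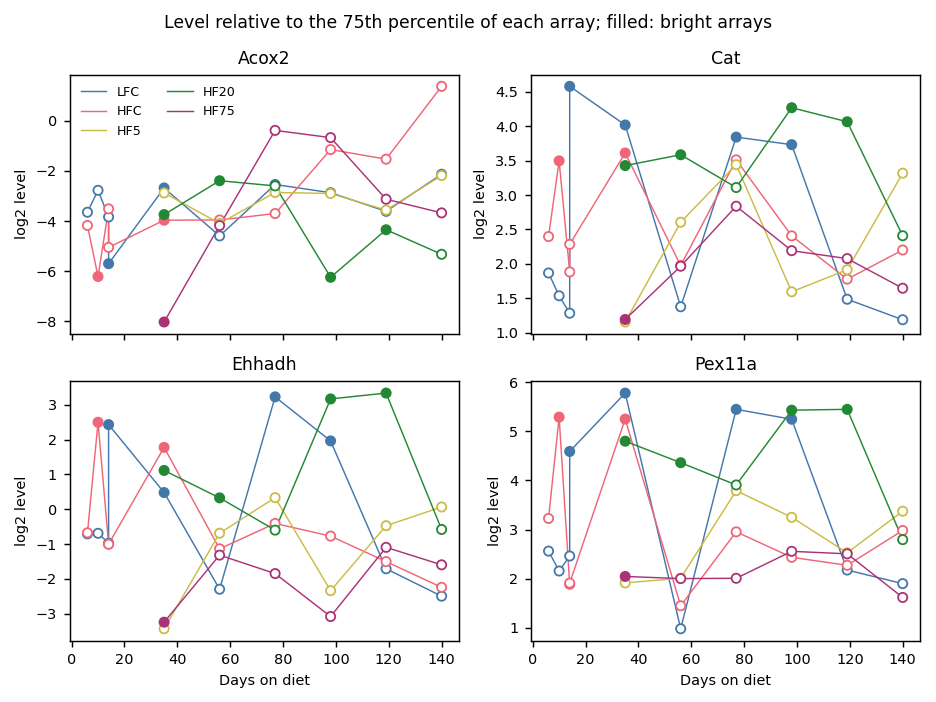
Levels of Acox2, Cat, Ehhadh and Pex11a (log2 relative to the 75th percentile of each array) against days on diet, with 1 point per array; lines join the arrays of a group and filled points are bright arrays. Day 14 and Week 0 both stand at day 14. Acox2 reaches 1.37 in HFC at the last point, while the other 3 genes are high where points are filled, except on HF75 Week 3.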

How the data were processed

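Brown adipose RNA was labelled with Cy3 and hybridised to 38 Agilent 1-colour arrays. The authors deposited each array's scanner output, whose processed signal is a background-corrected intensity, and a table of log2 values that they had normalized. The labels name Feature Extraction 9.1 and the file headers 10.5.1.1. Groups came from the labels, and 0 columns of per-sample values were left unmapped. The Week 15 columns of the deposited log2 table did not match their arrays, so that table was an alternative without Week 15.

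Log2 processed signal minus each array's 75th percentile was computed without 1417 control spots and without outlier spots (4 member spots, on 1 array, HFC Day 10). The probe with the highest mean stood for a gene. A gene was tested if 6 or more of the 38 arrays measured it well above background. limma 3.58.1 in R 4.3.3 was used. Tests were two-sided, p-values were adjusted by Benjamini-Hochberg across all 21625 genes, and 0.05 was the threshold. Time point was a fixed block, except in the slope over time, where diet was the covariate and arrays were not paired by time point. The scripts were tested on simulated data with known changes. The simulated noise was independent between genes and arrays and held no brightness effect. The simulation therefore does not show how the fits behave under uneven brightness. The number of arrays limits the precision.

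The members and lists were chosen with earlier results of these data known. In each comparison the 3 members with the smallest p are given in full, and group ranges are given for members that were among these in more than 1 comparison, for Acaa1a, Acaa1b, Ehhadh, Pex11a and Cat, and for a few others chosen after their values were seen. Time points are shared by design; deviations of same-time arrays of LFC and HFC correlated from -0.24 to 0.67, with 7 of 10 over 0.1. Normexp (offset 50), quantile normalization, other filters, brightness covariates, slide and scan day, array weights and left-out arrays were tried as alternatives.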

Additional observations from a re-analysis of the deposited data

Results flagged for a closer look

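Abcd4 in HFC stood at 1.94 at Week 3, a bright array, far from the other 9 HFC arrays, of which the nearest had 0.79. Chance alone sets apart about 1 in 20 groups tested in this way, and 65 groups were tested.

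The doses differed from each other by the F test (limma, adjusted p) in Abcd2 (0.0338), Pecr (0.0370), Pex19 (0.0371), Pex10 (0.0381), Pex11a (0.0416), Hsd17b4 (0.0430), Pex7 (0.0485), Pex16 (0.0486) and Amacr (0.0497). Without the HF75 array of Week 3, 0 of these passed. The part of array brightness in these differences was not tested apart from the covariate fits, which left 0 calls.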

How the results depend on the processing

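In bright against dim arrays 27 members were called in every fit that left out an array or time point (median 1.93 to 2.24). HFC against LFC ran from -0.47 to -0.04 and in weeks 3 to 18 from -0.72 to -0.16, HF5 from -0.36 to 0.41 and HF75 from -0.70 to -0.15, with 0 calls. HF20 ran from 0.88 to 1.41 with 0 to 11 calls (9 without Week 3, 11 without HFC Week 3, 10 without HF20 Week 9) and had 23 with array weights. The dose F test gave 0 to 23 calls with arrays or time points left out (HF20 minus HF5 0.96 to 1.68): 17 and 22 without Week 9 and 18, 21, 18 and 23 without HF20 Week 18, HF5 Week 18 and HF20 Week 9, 5 without HF5 Week 3 or 9, 2 to 4 without HF75 Week 6, 9 or 15 or HF5 Week 12 or 15, 6 without HF5 Week 6 or HF75 Week 18, and 0 otherwise. It gave 0 under normexp, without a filter, with the class or the log2 75th percentile as a covariate, with the class and without HF75 Week 3, and in the deposited table. It gave 16 with a filter on every array, 22 with slide as a random block, 26 with array weights and 3 with no replicate block, that is, without pairing by time point. HF20 minus HF5 was -0.040 with the class and -0.26 with the class and without HF75 Week 3, where Pecr was -0.12 and Pex19 -0.047. Pex7 in HFC against LFC was 0.056 with the class and at time points of 1 class, where Pex19 in HF20 was -0.035. The trend gave 0 or 1 calls with arrays left out (median -0.05 to -0.01), and 0 with either other filter, scan day as a random block, or the log2 75th percentile (median 0.025). The product ran from -0.06 to 0.01, was 0.046 with the log2 75th percentile, and Pex26 was 0.017 under normexp. HF75 against HF20 ran from -2.08 to -1.44 with 0 to 26 calls (0 without Week 6, 12 or 15 or HF20 Week 6 or 15, 3 without HF20 Week 12, 10 without HF75 Week 12, 13 without Week 3, 5 without HF75 Week 3). It had 0 under normexp, in the deposited table, with the class (-0.70), with the log2 75th percentile (-0.65), at weeks of 1 class, and with the class and without HF75 Week 3 (-0.13). The cause of these changes was not tested. The counts are given without the share of all genes passing in the same fit, so they do not set members apart from other genes. Scan day as a fixed block was not run for the trend, nor the deposited table for the trend and for brightness.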
